A study of Mus musculus with 16 samples.

Results

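The 10 genes described here form the core of the circadian clock: Arntl (also called Bmal1), Clock, Npas2, Per1, Per2, Per3, Cry1, Cry2, Nr1d1 and Dbp. They were taken by gene symbol from the deposited tables, which list 35415 genes, and all 10 were found there. All 10 were also among the 14749 genes that passed the filter on low counts. Npas2 passed that filter only through the groups other than C, where it is higher, so its presence among the tested genes is not independent of its difference.

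RNA was measured by polyA RNA sequencing of the gastrocnemius, the large calf muscle, in 16 wild type male BALB/c mice that were 8 weeks old at purchase. The control group (C) carried no tumor and was not trained, the exercise group (E) was trained, the tumor-bearing group (T) was inoculated with CT26 cells, and the tumor-bearing plus exercise group (TE) received both, with 4 mice in each group. CT26 is a colon carcinoma cell line of BALB/c origin, and the cells were placed under the skin of the hind limb, while C and E mice were anesthetized as well and injected with saline there. Trained mice ran on a treadmill for 4 weeks, with sessions of 60 min at a speed of 14 m/min on 6 days of each week, and untrained mice stood on a still treadmill for a short time each day. All mice were kept under a light/dark cycle. The hour at which each muscle was dissected and the interval since the last run are not given in the sources used here, and clock genes change through the day, so time of day and group cannot be told apart. Which of the hind limbs gave the muscle is also not given. One batch number is recorded for all libraries, and library totals ranged from 35628211 to 37635741 counts.

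The circadian clock is a loop of transcription and translation that runs in nearly every cell, muscle fibers included. ARNTL pairs with CLOCK or with its relative NPAS2, binds E-boxes in DNA and activates the Per and Cry genes together with Nr1d1 and Dbp. PER and CRY proteins then enter the nucleus and block the activators, whereas NR1D1 (REV-ERB alpha) represses Arntl through ROR elements, and DBP activates other genes through D-boxes. In tissues sampled around the clock, Arntl and Npas2 peak at about the opposite phase to Dbp and the Per genes. Below, Arntl, Clock and Npas2 are called the activators, and the other 7 genes the E-box-driven members. These names come from this general account of the loop, and not from the promoter letters or the values given below.

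Stretches of DNA before the start site are shown for the members in which the binding letters of the loop occur, because they give the positions at which the members are thought to act on each other. RefSeq promoters (GRCm38.p6, from 250 bases before to 50 bases after the start) were found for 9 of the 10 members, with 13 start sites. They were searched on both strands for the E-box CACGTG, the D-box TTATGTAA or TTATGCAA, and the ROR element TAGGTCA, which do not overlap one another here. Capitals mark these matches, and the strand shown is that of the gene. The stretch before the first start site of Per1 (chr11:69098699-69098948, plus strand) holds an E-box and a D-box, that of Per3 (chr4:151044666-151044915, minus strand) holds 2 D-boxes, and that of Cry1 (chr10:85185055-85185304, minus strand) holds an E-box. A ROR element lies 31 bases after the second start site of Arntl, for which only the 27 bases around it are given (chr7:113207531-113207557, plus strand).
Per1: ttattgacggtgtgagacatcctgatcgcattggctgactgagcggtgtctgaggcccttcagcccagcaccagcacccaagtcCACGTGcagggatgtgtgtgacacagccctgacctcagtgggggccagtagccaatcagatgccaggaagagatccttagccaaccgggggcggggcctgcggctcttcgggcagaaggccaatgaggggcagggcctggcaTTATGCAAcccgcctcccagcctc
Per3: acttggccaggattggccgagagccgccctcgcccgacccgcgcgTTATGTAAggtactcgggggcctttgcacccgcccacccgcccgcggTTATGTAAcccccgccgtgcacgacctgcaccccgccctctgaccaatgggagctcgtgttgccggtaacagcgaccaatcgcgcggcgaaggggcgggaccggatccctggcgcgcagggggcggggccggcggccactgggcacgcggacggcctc
Cry1: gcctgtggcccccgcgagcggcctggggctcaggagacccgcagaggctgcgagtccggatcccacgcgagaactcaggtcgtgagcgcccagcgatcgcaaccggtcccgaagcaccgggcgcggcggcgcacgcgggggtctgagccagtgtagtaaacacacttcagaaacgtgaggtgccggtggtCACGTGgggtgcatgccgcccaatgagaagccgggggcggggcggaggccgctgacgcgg
Arntl: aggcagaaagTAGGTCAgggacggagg
Counted from the start site, the E-box of Per1 begins at position -166 and its D-box at -24, the D-boxes of Per3 at -205 and -158, and the E-box of Cry1 at -60. Among all 32851 promoters in the table, 7.15% held the E-box, 1.66% a D-box and 2.61% the ROR element. The other 5 members with a promoter had none of these letters in the window. A match is a description of the letters and no evidence of binding in these muscles.

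In the annotation (GENCODE vM39, GRCm39), Arntl lies on chromosome 7 (112806152 to 112914735, plus strand), Clock on chromosome 5 (76342860 to 76452846, minus strand) and Npas2 on chromosome 1 (39232705 to 39402323, plus strand). Per1 lies on chromosome 11 (68986035 to 69002300, plus strand), Per2 on chromosome 1 (91343700 to 91387069, minus strand) and Per3 on chromosome 4 (151081373 to 151129140, minus strand). Cry1 lies on chromosome 10 (84967560 to 85021252, minus strand) and Cry2 on chromosome 2 (92233894 to 92264474, minus strand). Nr1d1 lies on chromosome 11 (98658752 to 98666188, minus strand) and Dbp on chromosome 7 (45354512 to 45359627, plus strand). All 10 are protein-coding genes, and values in the tables are sums over their exons. The end of Nr1d1 overlaps the end of Thra, a thyroid hormone receptor gene on the other strand, over 1694 of the 3242 exon bases of Nr1d1 (52.3%). Dbp shares 539 exon bases (15.5%) with Sphk2, and Clock shares 2047 (11.9%) with Tmem165, each on the other strand. The strand setting of the counting is not given in the sources used here, so reads in these shares cannot be assigned to one gene with certainty. Thra itself was at 12.4 ± 1.04 FPKM in C, 13.7 ± 1.93 in E, 11.8 ± 1.08 in T and 11.2 ± 0.345 in TE (mean ± SD, n = 4). Its group means had the same order as those of Nr1d1, highest in E and then in C, T and TE. Both genes were lower at an unadjusted p under 0.05 by edgeR in TE vs E and in the averaged tumor effect, and only Nr1d1 in the interaction. The part of shared reads in this was not tested.

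Per length of transcript (FPKM, fragments per kilobase and scaled to library size), Nr1d1 was the highest member, with a median over the 16 libraries of 42.0, followed by Dbp at 16.4. Cry2 had a median of 9.66 FPKM and Cry1 of 4.66 FPKM. Per2 (3.59 FPKM), Per1 (3.53), Clock (3.17) and Per3 (2.88) followed closely, then Arntl (0.801) and Npas2 (0.125). Among neighbours in this order, the ranges over libraries overlapped except between Cry2 and Cry1 and between Per3 and Arntl. This order pools the groups and differs in the C mice alone, where the mean of Dbp (43.05 FPKM) was above that of Nr1d1 (41.9), with overlapping ranges, and that of Per3 (4.74) above those of Cry1 (4.59), Per2 (4.29) and Per1 (4.12).

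**Figure D1:**
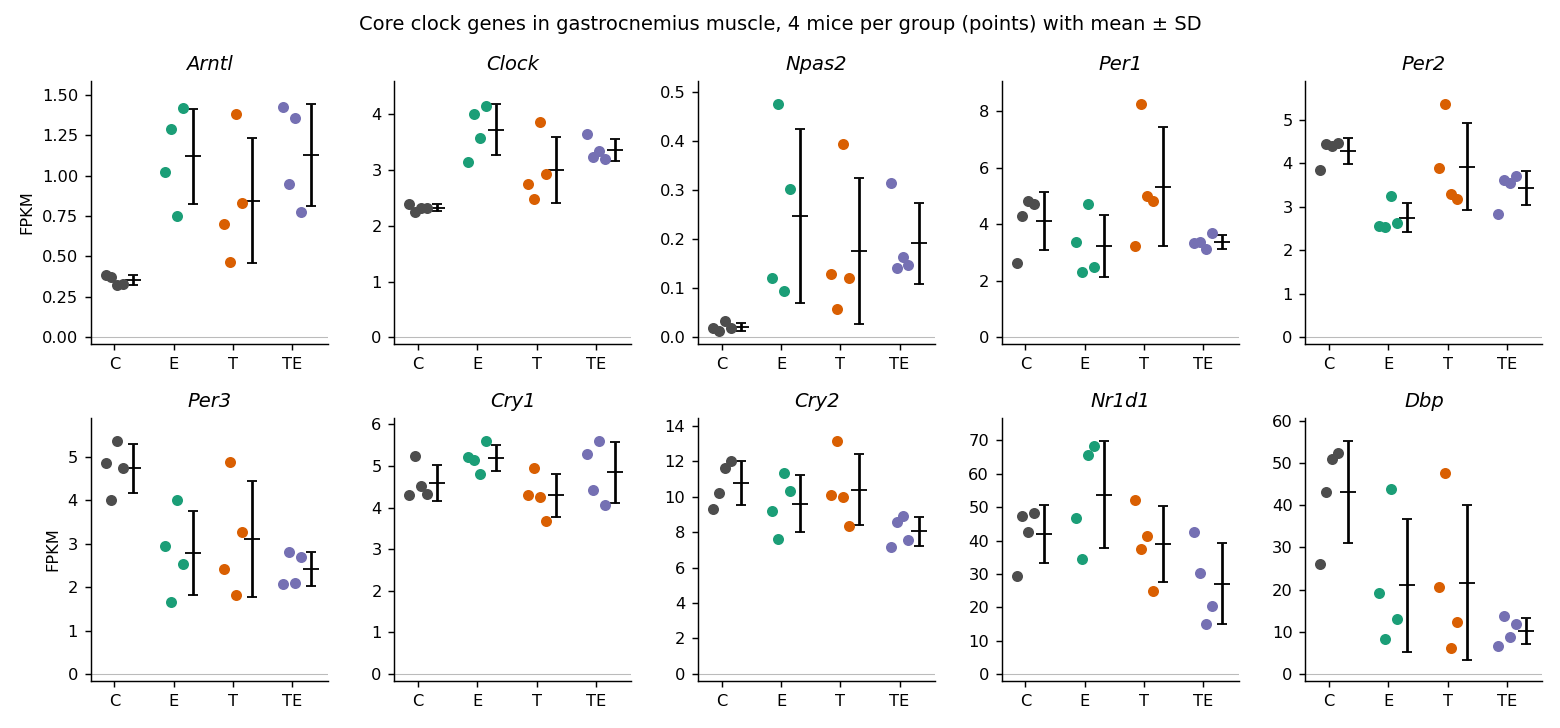
FPKM of each of the 10 genes (vertical axes, linear, a scale for each gene) in the C, E, T and TE groups, with 1 point per mouse and the mean ± SD of 4 mice beside the points. Arntl lies between 0.324 and 0.385 FPKM in the C mice and at or above 0.469 FPKM in the other 12 mice, whereas Dbp is spread from 6.14 to 47.5 FPKM within the T group alone.

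The activators were lowest in the C group. Arntl was at 0.385, 0.371, 0.324 and 0.328 FPKM in the C mice and at 1.02, 1.29, 0.753 and 1.42 FPKM in the E mice. In the T mice it was at 0.699, 0.469, 1.38 and 0.829 FPKM, and in the TE mice at 1.43, 0.951, 1.35 and 0.772 FPKM. Every mouse outside the C group was thus above every C mouse, and the C mice differed from each other far less (SD of log2 CPM 0.15) than the E (0.43), T (0.62) or TE mice (0.44).

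Clock, the usual partner of ARNTL, was also lowest in the C mice, with smaller differences between groups. It was at 2.4, 2.26, 2.32 and 2.33 FPKM in C and at 3.14, 4.01, 3.58 and 4.16 FPKM in E. It was at 2.75, 2.49, 3.86 and 2.93 FPKM in T and at 3.65, 3.24, 3.34 and 3.20 FPKM in TE. The lowest of the 12 mice outside C, T replicate 2, was above the highest C mouse.

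Npas2, which can replace CLOCK as the partner, was barely detected in the C mice, with 3, 2, 5 and 3 counts in the whole library. It had 19, 73, 15 and 47 counts in the E mice, 20, 9, 63 and 19 in the T mice, and 49, 22, 26 and 23 in the TE mice. Summed over 4 libraries, the 13 counts in C compare with 154 in E, which is 11.4 times as many relative to library size (exact 95% interval 6.45 to 21.8), 111 in T (8.54 times, 4.79 to 16.5) and 120 in TE (9.16 times, 5.16 to 17.7). These intervals cover counting error only, and not the spread among mice. On the FPKM scale Npas2 ranged from 0.0128 to 0.0323 in C and from 0.0575 to 0.474 in the other 12 mice.

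The Per genes, which encode repressors of the activators, differed in pattern from each other. Per1 was at 2.63, 4.29, 4.82 and 4.73 FPKM in C, at 3.36, 2.32, 4.71 and 2.5 in E, at 3.25, 8.25, 5.0 and 4.83 in T and at 3.34, 3.37, 3.11 and 3.69 in TE. All groups overlapped in Per1, and its highest value of all libraries was in T replicate 2. Per2 was at 3.85, 4.44, 4.39 and 4.47 FPKM in C, at 2.56, 2.55, 3.25 and 2.64 in E, at 3.88, 5.36, 3.29 and 3.17 in T and at 2.84, 3.62, 3.56 and 3.72 in TE. Every E mouse and every TE mouse was below every C mouse in Per2, whereas the T mice spanned the C range. Per3 was at 4.85, 4.00, 5.37 and 4.74 FPKM in C, at 2.95, 1.67, 4.00 and 2.53 in E, at 2.42, 4.89, 1.82 and 3.28 in T and at 2.07, 2.82, 2.1 and 2.70 in TE. E replicate 3 and T replicate 2 had the highest Per3 of their groups and were close to or within the C range.

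The Cry genes encode the partners of the PER proteins. Cry1 had means of 4.59 ± 0.434 FPKM in C, 5.19 ± 0.317 in E, 4.29 ± 0.524 in T and 4.84 ± 0.725 in TE (SD, n = 4), and its groups overlapped. Cry2 was at 9.33, 10.2, 11.6 and 12 FPKM in C, at 9.18, 7.61, 11.3 and 10.3 in E, at 10.1, 13.1, 9.998 and 8.36 in T and at 7.19, 8.58, 8.90 and 7.55 in TE. All TE mice were below all C mice in Cry2.

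Nr1d1, the repressor of Arntl, was at 29.4, 47.4, 42.7 and 48.2 FPKM in C, at 46.7, 34.5, 65.6 and 68.2 in E, at 52.1, 37.5, 41.4 and 24.9 in T and at 42.7, 30.4, 14.9 and 20.4 in TE. Its highest values were in E and its lowest in TE, with overlap between all groups. Dbp, a transcription factor of the PAR bZIP family often used as a readout of clock phase, was at 26, 43.0, 50.8 and 52.4 FPKM in C and at 19.1, 8.26, 43.8 and 13 in E. It was at 20.7, 47.5, 6.14 and 12.4 FPKM in T and at 6.79, 13.7, 8.80 and 12 in TE. E replicate 3 and T replicate 2 again lay within the C range, and all TE mice lay below it.

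Counting the members whose groups did not overlap in log2 CPM (counts scaled to library size, with TMM factors), T and C were separated in 3 of 10 members (Arntl, Clock and Npas2, higher in T), beside 6.86% of all tested genes. E and C were separated in 5 of 10 (the activators higher in E, Per2 and Per3 lower), beside 9.08% of tested genes. In Per3 this holds by a narrow margin and not on the FPKM scale, where E replicate 3 and C replicate 2 both stood at 4.00. TE and C were separated in 7 of 10 (the activators higher in TE; Per2, Per3, Cry2 and Dbp lower), beside 7.7% of tested genes. The 12 libraries outside C were all above the C libraries in the 3 activators, beside 0.78% of tested genes separated in either direction. TE was separated from T in 0 of 10 members (2.58% of tested genes) and from E in 0 of 10 (6.62%). These comparisons share the C, T or E mice with each other. Npas2 is counted in them, although it passed the filter on low counts only through the groups other than C. Its separation from C is therefore not independent of the filter, and among the activators only Arntl and Clock are free of this limit.

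**Figure D2:**
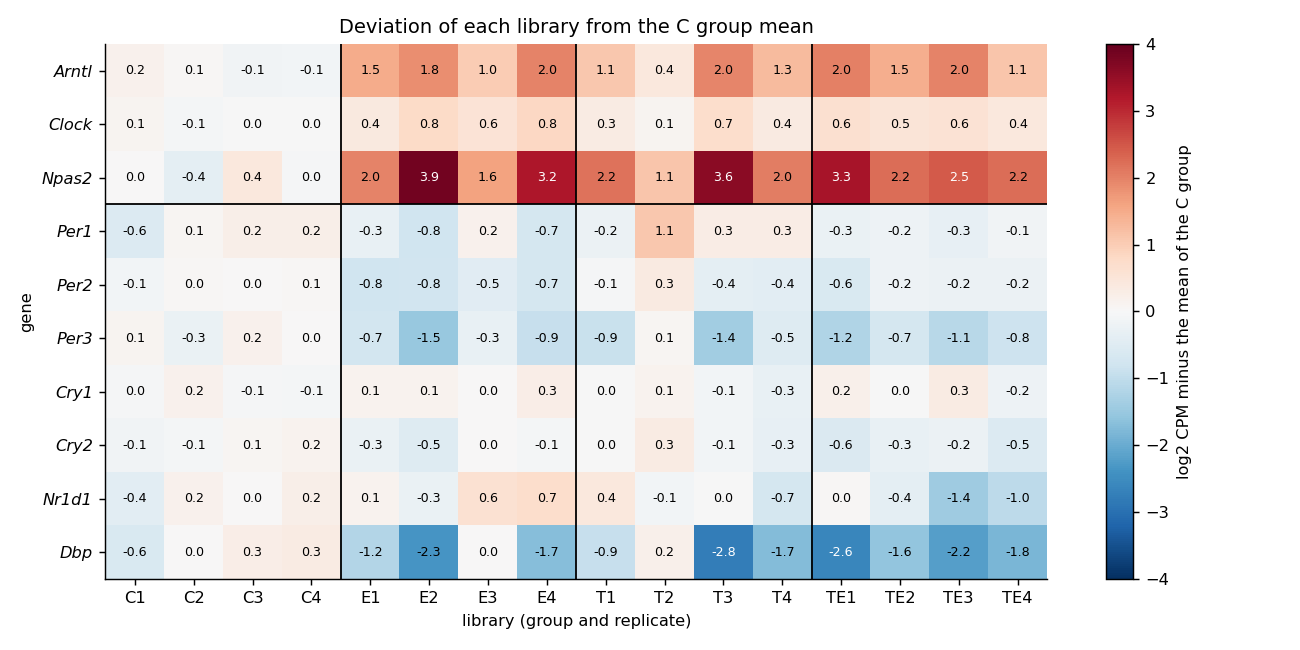
Log2 CPM of each gene minus its mean in the C group, for each of the 16 libraries (columns, by group and replicate), with the activators above the horizontal line. The activators are red in all 12 libraries outside C, with Arntl from 0.44 in T replicate 2 to 2.01 in TE replicate 1, and Dbp is blue in 10 of these 12, down to -2.77 in T replicate 3.

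The question put to the T and C groups was which genes differ in the muscle of tumor-bearing mice without training. Arntl rose in T, with a log2 fold change of 1.28 (SE 0.277, 95% interval 0.70 to 1.87, adjusted p = 0.0439 by edgeR), that is 2.43-fold. It was the only one of the 10 members called at an adjusted p under 0.05, beside 0.678% of all tested genes (100 genes). Npas2 had a log2 fold change of 3.03 (SE 0.683, adjusted p = 0.0509) and Clock one of 0.39 (SE 0.111, adjusted p = 0.112), neither past the threshold. Per3 was at -0.59 (SE 0.253, adjusted p = 0.298) and Dbp at -0.95 (SE 0.508, interval -2.02 to 0.12, adjusted p = 0.419). Cry1, Cry2, Nr1d1 and Per2 lay between -0.10 and -0.02, and Per1 was at 0.40 (SE 0.238). At an unadjusted p under 0.05, 4 members passed (the activators higher and Per3 lower), beside 14.2% of tested genes. The call of Arntl was lost in a fit of the T and C libraries alone (adjusted p = 0.0701), in a robust fit (0.0871), with limma-voom and sample weights (0.160), and it was kept in 5 of 16 refits that left out 1 library, of which leaving out C replicate 4 gave the highest value (0.143). Its log2 fold change in these alternatives stayed between 0.96, without T replicate 3, and 1.48, without T replicate 2, and with DESeq2 its adjusted p was 0.00404. DESeq2 called 3 members here, the activators, beside 2.81% of the genes to which it gave an adjusted p (423 genes). Its adjusted p was 0.00164 for Npas2 and 0.0437 for Clock.

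Tumor-free trained mice (E) were compared with C to see what training alone was associated with. Arntl rose by a log2 fold change of 1.63 (SE 0.277, 95% interval 1.05 to 2.22, adjusted p = 0.0280) and Clock by 0.64 (SE 0.111, interval 0.41 to 0.88, adjusted p = 0.0315), which is 1.56-fold. These 2 of 10 members were called, beside 0.0881% of tested genes (13 genes). Npas2 had a log2 fold change of 3.48 (SE 0.680, adjusted p = 0.0516), Per2 one of -0.68 (SE 0.140, adjusted p = 0.0725) and Per3 one of -0.81 (SE 0.254, adjusted p = 0.188). Dbp was at -1.08 (SE 0.509, adjusted p = 0.351), Per1 at -0.39 (SE 0.240), Cry2 at -0.20 (SE 0.134), Cry1 at 0.14 (SE 0.112) and Nr1d1 at 0.32 (SE 0.284). At an unadjusted p under 0.05, 6 members passed (the activators higher, and Per2, Per3 and Dbp lower), beside 14.2% of tested genes. Both calls were lost when any single C replicate, E replicate 2 or E replicate 4 was left out, where 0 to 6 genes of all those tested were called, and the adjusted p without C replicate 4 was 0.146 for each gene. The call of Clock was also lost without E replicate 3 and without TE replicate 2, so that it was kept in 8 of 16 such refits and that of Arntl in 10, and the call of Arntl was lost in the robust fit (adjusted p = 0.0643). With DESeq2 4 members were called, the activators and Per2, beside 1.85% of the genes to which it gave an adjusted p (252 genes), with adjusted p-values of 0.000108 for Arntl, 9.75e-05 for Clock, 0.000227 for Npas2 and 0.00171 for Per2.

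**Figure D3:**
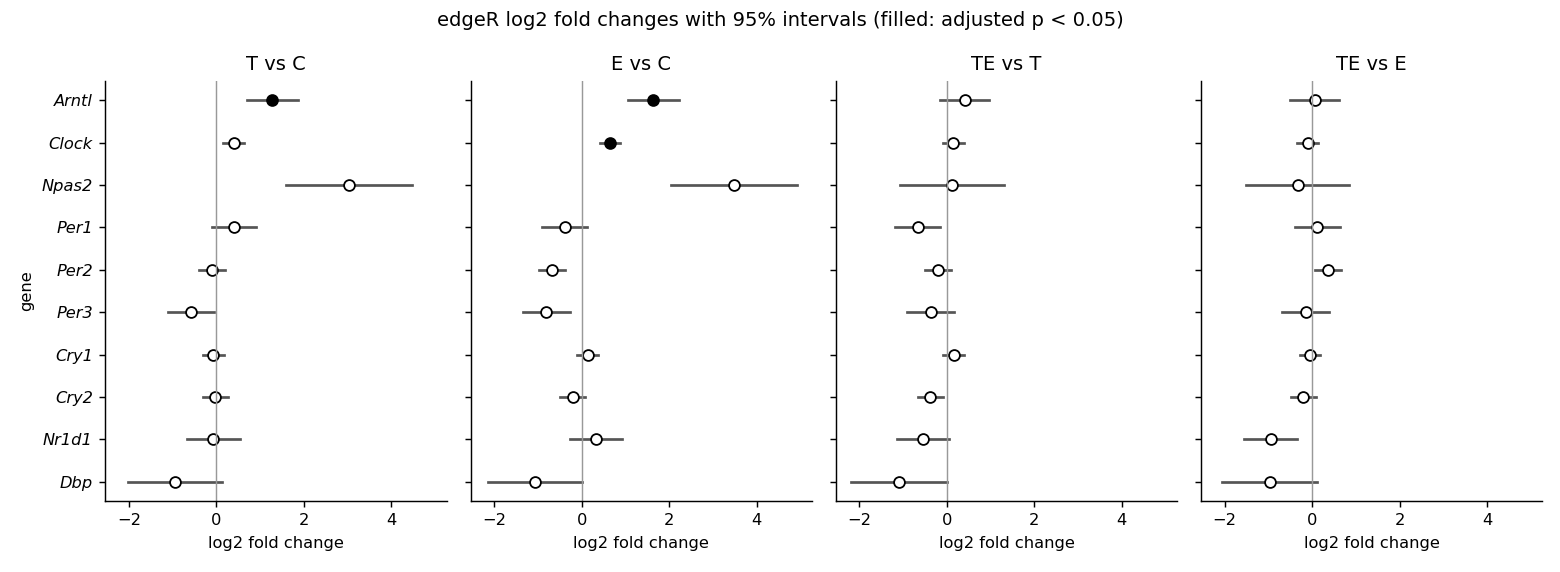
Log2 fold changes of the 10 genes by edgeR (horizontal axis) with 95% intervals in 4 comparisons, with filled points for an adjusted p under 0.05. Arntl is filled in T vs C (1.28) and E vs C (1.63) and Clock in E vs C (0.64), while no point is filled in TE vs T or TE vs E.

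Within tumor-bearing mice, training (TE vs T) gave no member past the adjusted threshold by edgeR, as for all tested genes (0%). DESeq2 also called 0 members, beside 0.0426% of its genes with an adjusted p. At an unadjusted p under 0.05, 3 of 10 members passed, all lower in TE, beside 5.88% of tested genes. These were Per1, with a log2 fold change of -0.67 (SE 0.240, adjusted p = 0.758), Cry2 with -0.38 (SE 0.134, adjusted p = 0.747) and Dbp with -1.09 (SE 0.517, adjusted p = 0.847). Arntl was at 0.41 (SE 0.265, interval -0.15 to 0.97).

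Among trained mice, TE vs E gave 0 called members, beside 0.231% of tested genes, and DESeq2 also called 0, beside 1.19% of its genes with an adjusted p. At an unadjusted p under 0.05, 2 members passed, beside 9.23% of tested genes. Nr1d1 had a log2 fold change of -0.94 (SE 0.287, interval -1.55 to -0.34, adjusted p = 0.248) and Per2 one of 0.37 (SE 0.141, adjusted p = 0.403). Thra, which shares exon bases with Nr1d1 on the other strand, had -0.24 (SE 0.0882, adjusted p = 0.387). The activators were close to 0 in this comparison (Arntl 0.06, Clock -0.10, Npas2 -0.33).

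Averaged over training, the tumor effect gave 0 called members by edgeR, beside 1.36% of tested genes, and 0 by DESeq2, beside 3% of its genes with an adjusted p. By edgeR 4 members passed at an unadjusted p under 0.05, beside 14.2% of tested genes. These were Arntl (0.67, SE 0.191, adjusted p = 0.104), Npas2 (1.35, SE 0.439), Nr1d1 (-0.50, SE 0.202) and Dbp (-0.96, SE 0.362, adjusted p = 0.226). Without T replicate 2, 2 members were called, Arntl (0.77, adjusted p = 0.0267) and Dbp (-1.32, adjusted p = 0.0447), beside 1.88% of tested genes (281, against 201 with all libraries). Both were called in only 1 of the 16 refits that left out 1 library.

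Averaged over tumor, the training effect also gave 0 called members, beside 0.00678% of tested genes (1 gene). At an unadjusted p under 0.05, 8 of 10 members passed, the most of any comparison here, beside 10.8% of tested genes. The activators were higher in trained mice, with log2 fold changes of 1.02 for Arntl (SE 0.191, adjusted p = 0.1), 0.39 for Clock (SE 0.0782, adjusted p = 0.108) and 1.80 for Npas2 (SE 0.441, adjusted p = 0.188). The other 5 were lower, with values of -0.53 for Per1, -0.44 for Per2, -0.59 for Per3, -0.29 for Cry2 and -1.09 for Dbp. Cry1 (0.15) and Nr1d1 (-0.11) did not pass. With DESeq2 the activators and Per2 were called, beside 0.735% of its genes with an adjusted p (97 genes). With limma-voom Arntl and Clock were called (adjusted p = 0.0287 for both), beside 0.0949% of tested genes (14 genes). Without T replicate 3, 4 members were called (the activators and Per2), beside 0.695% of tested genes (104 genes). Each of these was called in only 1 of the 16 refits that left out 1 library.

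The interaction asks whether the training difference itself differed with tumor. It gave 0 called members by edgeR, beside 0% of tested genes, and 0 by DESeq2, beside 0.14% of its genes with an adjusted p. At an unadjusted p under 0.05, 5 members passed, beside 9.21% of tested genes. The interaction was -1.23 for Arntl (SE 0.381, adjusted p = 0.438), -0.49 for Clock (SE 0.156), -3.36 for Npas2 (SE 0.881), -0.87 for Nr1d1 (SE 0.403) and 0.47 for Per2 (SE 0.197). For the activators the training difference was thus larger without tumor (Arntl 1.63) than with it (Arntl 0.41), a difference that did not pass the adjusted threshold.

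Summed levels of markers of other cell types differed between the groups in the same libraries. The 10 fast fiber markers were present in every library and summed to between 78900 and 91720 FPKM, so the tissue label holds. The sum of 5 neutrophil markers was 1.22 to 7.17 FPKM in C and 1.27 to 8.05 in E, with Retnlg at 0 in all C libraries, but 14.2 to 81.0 in T and 19.5 to 33.6 in TE. The 5 red blood cell markers summed to 361 to 527 FPKM in C, 391 to 581 in E, 733 to 820 in T and 863 to 1271 in TE. The 5 tendon markers were at 25.7 to 30.3 FPKM in C, 51.2 to 81.6 in E, 23.0 to 40.6 in T and 25.2 to 36.8 in TE. Their members did not all agree, since Tnmd, Fmod, Comp and Thbs4 had higher means in E than in C. Scx had a lower one (1.46 FPKM in E, 1.89 in C). The 4 endothelial markers were at 102 to 133 in C, 137 to 151 in E, 109 to 158 in T and 101 to 140 in TE. In T, the means of Pecam1 and Tek were above those in C, and those of Kdr (9.68 FPKM, 15.8 in C) and Cdh5 were below. Lymphocyte markers were highest in TE replicate 4, at 39.8 FPKM, and at or below 13 in the others. Slow fiber, adipocyte, Schwann cell and macrophage markers overlapped between all groups. The part of these cells in the clock gene differences was not tested, and in a whole muscle, fewer cells of a type and less RNA per cell cannot be told apart.

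The members were also compared with each other across mice, since the activator and repressor arms are read in the same library. Taken as deviations from each group's mean, so that differences between groups play no part, all 3 pairs of activators were positive and passed the test, and 6 of 21 pairs of an activator with an E-box-driven member passed, all negative. The threshold was an adjusted p of r under 0.05 by permutation within groups (two-sided, 100000 resamples, adjusted over the 45 pairs), and 12 of all 45 pairs passed, 6 of them positive and 6 negative. No share over pairs of other tested genes was taken, so these counts cannot be called particular to the members. The negative ones were Dbp with each activator, Per3 with Arntl and with Npas2, and Per2 with Arntl (r = -0.77, adjusted permutation p = 0.0409), whereas Clock with Per3 (r = -0.73, adjusted permutation p = 0.0929) did not pass. Arntl and Clock had r = 0.85 (adjusted permutation p = 0.0244), and Arntl and Npas2 had r = 0.82 (adjusted permutation p = 0.0244). Arntl and Dbp had r = -0.91 (Spearman's rho = -0.89, adjusted permutation p for r = 0.00945), the strongest negative pair, and Arntl and Per3 had r = -0.82 (rho = -0.75, adjusted permutation p = 0.0244). Among the E-box-driven members, Per2 and Dbp had r = 0.86 (adjusted permutation p = 0.0112), Per3 and Dbp 0.86 (0.0244) and Per2 and Cry2 0.80 (0.00945).

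Across all 16 libraries, where differences between groups add to the relation, 22 of 45 pairs passed, again without a share over pairs of other tested genes. All 3 pairs of activators were positive and passed (r from 0.94 to 0.95), 11 of 21 pairs of an activator with an E-box-driven member passed and were negative, and 8 of 21 pairs among the E-box-driven members passed and were positive. Arntl and Dbp had r = -0.90 (rho = -0.88, adjusted permutation p = 0.000112 for r and 0.000193 for rho), and Npas2 and Per3 had r = -0.91 (rho = -0.93, adjusted permutation p = 9e-05 for r and 0.00015 for rho). The C mice form a tight set at the low end of Arntl, so the relation was also taken over the 12 mice outside C, a choice made after seeing the data. There, 17 of 45 pairs passed, and Arntl and Dbp had r = -0.85 (rho = -0.76, adjusted permutation p for r = 0.00247). Leaving out the 2 libraries farthest from the median of Arntl (C replicates 3 and 4) gave r = -0.85 for Arntl and Dbp and r = -0.87 for Arntl and Per3.

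**Figure D4:**
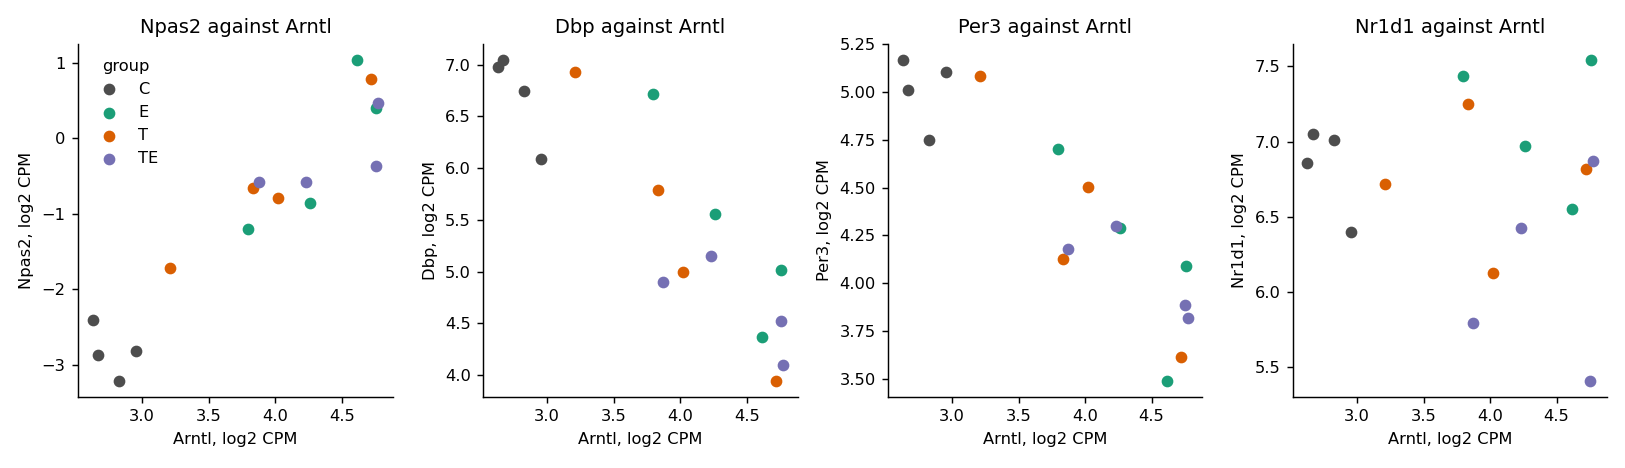
Log2 CPM of Npas2, Dbp, Per3 and Nr1d1 (vertical axes) against that of Arntl (horizontal axes), with 1 point per mouse colored by group. Across the 16 libraries Npas2 is higher, and Dbp and Per3 are lower, where Arntl is higher, and Nr1d1 shows little slope (r = -0.16), while within C, where Npas2 rests on 2 to 5 counts, C replicate 3 has the lowest Arntl and the most Npas2 counts.

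The relation was not shared by all repressors. Nr1d1 passed with no other member in any of these sets, with r = -0.16 against Arntl (rho = -0.12, adjusted permutation p = 0.656 for r), although NR1D1 protein acts on the Arntl gene, and r = 0.39 against Dbp (rho = 0.39, adjusted permutation p = 0.211). By r, Cry1 likewise passed with no member, and its r with Arntl was 0.32 (rho = 0.45, adjusted permutation p for r = 0.308). By rho over the 16 libraries, Cry1 did pass with Per1 (rho = -0.59, adjusted permutation p = 0.0399), where r was -0.34 (adjusted permutation p = 0.276). Per1 with Arntl was at r = -0.46 (adjusted permutation p = 0.123) over all libraries and -0.70 (adjusted permutation p = 0.0354) over the 12 outside C. The positive r of Per1 with Per2 (0.65) and with Cry2 (0.61) fell to 0.35 and 0.28 without E replicate 2 and T replicate 2, so these pairs rested on those 2 libraries.

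**Figure D5:**
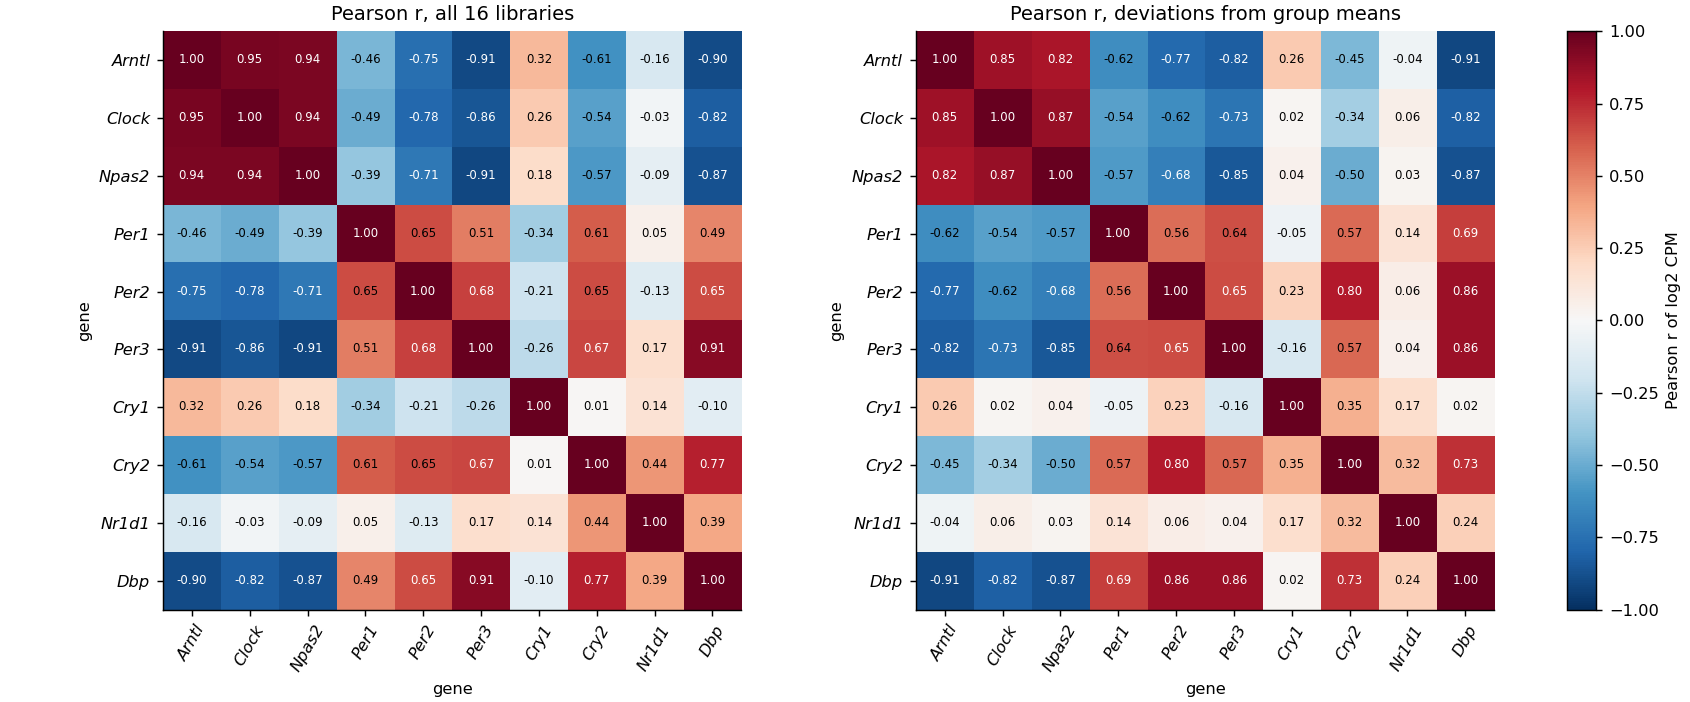
Pearson r of log2 CPM between the 10 genes, over all 16 libraries (left) and over deviations from group means (right). The block of Arntl, Clock and Npas2 is red (r from 0.82 to 0.95 in the 2 panels), its crossing with Per2, Per3 and Dbp is blue, and the rows of Cry1 and Nr1d1 are pale.

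The spread among mice of one group, pooled over the 4 groups as the residual SD of log2 CPM, was above the median of tested genes in 8 of 10 members. It was 0.86 for Dbp, higher than in 95.7% of tested genes, 0.79 for Npas2 (93.9%) and 0.48 for Nr1d1 (81.3%). It was 0.44 for Arntl (78.8%), 0.43 for Per3 (77.7%) and 0.39 for Per1 (75.7%), and near the median of all tested genes (0.19) for Per2 (0.22), Cry2 (0.21), Cry1 (0.17) and Clock (0.17). The spread was not even among groups. In the C mice alone the SD of log2 CPM was 0.07 for Clock, 0.07 for Per2, 0.15 for Arntl and 0.18 for Per3, beside 0.25, 0.36, 0.62 and 0.62 in the T mice. In Dbp the groups differed as well, with an SD of log2 CPM of 0.43 in C, 1.00 in E, 1.26 in T and 0.46 in TE. T replicate 3 and T replicate 2 were at the opposite ends of the T group, with Dbp at -2.77 and 0.22 and Arntl at 1.95 and 0.44, each as log2 CPM relative to the C mean. In the E group Dbp was lowest in E replicate 2 (-2.35, with Arntl at 1.85) and highest in E replicate 3 (0.01, with Arntl at 1.03), whereas Arntl was highest in E replicate 4 (1.99).

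Other transcription factors of the loop were described as a list of 11 genes, of which 10 were tested. By edgeR 0 of the 10 were called in any comparison, whereas 6 in the averaged tumor effect and 5 in the averaged training effect had an unadjusted p under 0.05, beside 14.2% and 10.8% of tested genes, and the median of their log2 fold changes was -0.06 for the averaged tumor effect (all tested genes 0.00) and -0.08 for the averaged training effect (all tested genes 0.01). Hlf, a PAR bZIP factor like DBP, was at -0.46 (SE 0.114, adjusted p = 0.0595) with tumor and at -0.29 (SE 0.114) with training. Ciart, a repressor of ARNTL and CLOCK, was at -0.88 (SE 0.386) and -0.96 (SE 0.386), and Nfil3, which competes with DBP for D-boxes, at 0.76 (SE 0.249) and 0.71 (SE 0.249). Across the 16 libraries and as a description, r with Dbp was 0.92 for Nr1d2, the paralog of Nr1d1, 0.92 for Ciart and 0.91 for Hlf, and -0.84 for Nfil3.

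Of 13 genes for enzymes and partners that modify clock proteins, 12 were tested and 0 were called by edgeR in any comparison, with 2 at an unadjusted p under 0.05 in each averaged effect, beside 14.2% of tested genes with tumor and 10.8% with training. The largest averaged tumor effects were those of Timeless (0.50, SE 0.133, adjusted p = 0.0775), Gsk3b (0.14) and Btrc (-0.13), and the largest averaged training effects those of Usp2 (-0.24), Csnk1d (-0.11) and Gsk3b (0.09). Of 14 genes known as clock outputs in muscle or other tissues, 1 was called, in the averaged tumor effect, beside 1.36% of tested genes: Cdkn1a, a cell cycle inhibitor, rose by 1.01 (SE 0.223, adjusted p = 0.0295). Wee1, a cell cycle kinase gene with E-boxes, was at -0.30 (SE 0.158) with tumor and -0.39 (SE 0.158) with training, and its r with Arntl was -0.88. Pdp1, a phosphatase gene of pyruvate metabolism, was at -0.27 (SE 0.118) in both averaged effects and had an r of 0.88 with Dbp, and Tbc1d1, a regulator of glucose uptake, was at 0.37 (SE 0.146) with tumor.

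Genes that respond to glucocorticoids, hormones with a daily rhythm that reset clocks in tissues, were listed as well. Of 10 tested, 2 were called in T vs C, beside 0.678% of tested genes: Fkbp5, a chaperone of the glucocorticoid receptor, rose by 1.80 (SE 0.395, adjusted p = 0.0451) and Zbtb16, a transcription factor, by 1.49 (SE 0.317, adjusted p = 0.0392). Fkbp5 was also called in the averaged tumor effect (1.21, SE 0.274, adjusted p = 0.0337). Mt2, a metallothionein, was at 1.32 (SE 0.376, adjusted p = 0.104) there. The median of the list was 0.47 in T vs C and 0.29 in E vs C, beside 0.00 and 0.00 over all tested genes. It was 0.20 in TE vs E and -0.09 in TE vs T, where 7 of 10 were lower. In the interaction it was -0.44, with 4 genes lower at an unadjusted p under 0.05 by edgeR, beside 9.21% of tested genes. In the averaged training effect Zbtb16 was at 0.58 (SE 0.220), Fkbp5 at 0.42 (SE 0.271) and Fbxo32, a ubiquitin ligase of muscle atrophy, at 0.33 (SE 0.263). As a description over the 16 libraries, r with Arntl ranged from 0.16 for Tsc22d3 and 0.17 for Sgk1 to 0.78 for Zbtb16. All 10 were positive, beside 49.5% of the other tested genes. This list and the next were chosen with earlier results of these data known, so counts of positive r in them carry no test. Of 10 immediate early genes, which respond within minutes to contraction or handling, 0 were called by edgeR in any comparison, with 1 at an unadjusted p under 0.05 in each averaged effect, beside 14.2% of tested genes with tumor and 10.8% with training, and their r with Arntl ranged from -0.42 for Jun to 0.39, with 8 of 10 positive. In that list Fos was at -0.74 (SE 0.497) with tumor and -0.51 (SE 0.496) with training, and Junb was at 0.44 (SE 0.193) with tumor and -0.28 (SE 0.193) with training. Fosb was at -0.30 (SE 0.778) with tumor, and Jun at -0.27 (SE 0.115) with training.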

How the data were processed

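RNA of the gastrocnemius from 16 mice was analysed, 4 each in the C, E, T and TE groups given by the sample labels (0 columns belonged to other samples). The authors trimmed reads, aligned them to GRCm39 and counted them per gene (fastp 0.20.1, HISAT2 2.1.0 and HTSeq 0.11.2 per the submitters' processing notes), and deposited the counts without normalization. The deposited FPKM values are counts scaled by gene length and library total, which was checked over 16037 genes with over 50 counts. Library totals were 35628211 to 37635741 counts, and 3 counts correspond to 0.0842 CPM or less.

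Counts were tested with edgeR 4.0.16 in R 4.3.3 (filterByExpr, TMM factors, the quasi-likelihood test, 1 coefficient per group over all 16 libraries). The 7 contrasts were T vs C, E vs C, TE vs T, TE vs E, the averaged tumor and training effects and their interaction. Two-sided p-values were corrected with the Benjamini-Hochberg procedure over 14749 genes in each contrast, and a gene was called at an adjusted p under 0.05 at any fold change. The same test was run on simulated counts first. Log2 CPM used a prior count of 2. Correlations over 45 pairs of members were tested with 100000 permutations, the smallest p of which is 1e-05. Alternatives were DESeq2 1.42.0 and its size factors, no filter, only the groups compared, the replicate block, limma-voom with sample weights (limma 3.58.1), a robust fit, other thresholds, log2(FPKM + 1), a prior count of 0.5, and each library left out in turn. The separation of TE from C was added after seeing the data.

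The members and the gene lists were chosen with earlier results of these data known. Named genes were the 10 members, the listed genes that were called or held 1 of the 3 largest averaged effects of their list, the 5 genes with the highest and the 5 with the lowest r with Arntl and with Dbp, and genes overlapping a member. The labels call the libraries biological replicates and give the same replicate numbers in each group. Deviations of same-numbered libraries had a median r of -0.013 over 24 pairs, beside 0.009 over 72 pairs of other numbers, so mice were not paired in the main fit. These values cannot exclude an order of handling shared by replicate number.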

Additional observations from a re-analysis of the deposited data

Results flagged for a closer look

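Of 40 sets of 4 mice (10 genes in 4 groups, FPKM), 3 held a library that lay far from the other 3 by Dixon's ratio (gap to the nearest value over the range, critical value 0.829 for 4 samples), where chance gives about 1 in 20 sets. Npas2 in TE was highest in TE replicate 1 (0.314 FPKM, the others 0.140 to 0.164, ratio 0.864). Per2 in C was lowest in C replicate 1 (3.85 FPKM, the others 4.39 to 4.47, ratio 0.873), and Per2 in E was highest in E replicate 3 (3.25 FPKM, the others 2.55 to 2.64, ratio 0.874). E replicate 3 also had the highest Per1, Per3, Cry2 and Dbp of its group.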

How the results depend on the processing

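Counts of called members moved by over 1.5 times in these alternatives. Percentages are the shares of all genes with an adjusted p that the same setting called, and they moved as well. In T vs C, 1 by edgeR (0.678%) became 2 with DESeq2 size factors (0.705%), 3 with the DESeq2 test (2.81%), 2 without the filter (0.73%), and 0 each with only the groups compared (0.213%), the replicate block (0.522%), the robust fit (0.502%) and limma-voom with sample weights (0.461%). In E vs C, 2 (0.0881%) became 4 with the DESeq2 test (1.85%), 4 without the filter (0.189%), 4 with only the groups compared (1.29%) and 1 with a fold change over 2 or under 0.5 (0.0475%), and remained 2 with the replicate block (0.17%). In the averaged training effect, 0 (0.00678%) became 4 with the DESeq2 test (0.735%), 2 without the filter (0.0713%) and 2 with limma-voom (0.0949%), and in the averaged tumor effect 0 (1.36%) became 1 without the filter (1.12%). With the unadjusted p the counts were 4 (T vs C), 6 (E vs C), 3 (TE vs T), 2 (TE vs E), 4 (averaged tumor), 8 (averaged training) and 5 (interaction). Leaving out 1 library gave 0 to 3 called in T vs C (16 to 255 of all genes), 0 to 4 in E vs C (0 to 127), 0 to 2 in the averaged tumor effect (130 to 281), 0 to 4 in the averaged training effect (1 to 104) and 0 in the other 3 contrasts (0 to 69). Of 45 pairs of members, 22 passed in all libraries, 12 as deviations from group means, 17 without the C group and 16 (without T replicate 2) to 27 (without T replicate 3) with 1 library left out. Members with a spread above the median of tested genes numbered 8, and 6 to 8 with 1 library left out. The cause of these changes was not tested. No called value changed sign.

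With 4 mice per group, wide intervals remain for Dbp and Npas2, Npas2 in C rests on 2 to 5 counts per library, and the hour of dissection is unknown. The replicate numbers stand for different mice, and whether they also mark an order of handling is not given. Why the call of Arntl in T vs C was lost under the replicate block (adjusted p = 0.0753 by edgeR) was not tested. In T vs C Npas2 could not be fitted with only the groups compared, since it did not pass the filter there.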

Other observations

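Outside the members, the tested genes whose log2 CPM over the 16 libraries had the highest r with Arntl were Ypel2 (0.90), Dab2ip (0.90), Slc25a36 (0.90), Col20a1 (0.90) and Steap4 (0.89). Ypel2 was at 1.23 ± 0.0985 FPKM in C, 1.90 ± 0.342 in E, 1.46 ± 0.407 in T and 1.90 ± 0.291 in TE (SD, n = 4). The lowest r with Arntl were those of Tspan4 (-0.89), Wee1 (-0.88), Coq10b (-0.88), Creg1 (-0.88) and Hlf (-0.88). For Dbp the highest r were those of Coq10b (0.95), a gene for a coenzyme Q binding protein of mitochondria, Nr1d2 (0.92), Ciart (0.92), Hlf (0.91) and Trim16 (0.91), and the lowest those of Pmepa1 (-0.91), Abr (-0.90), Il1r1 (-0.90), Steap4 (-0.88) and Fam124b (-0.87). Coq10b was at 12 ± 1.98 FPKM in C, 7.83 ± 3.19 in E, 7.498 ± 2.95 in T and 5.70 ± 0.541 in TE. These are the extremes of 14749 genes over libraries that share groups, so the values are descriptions and carry no test.

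Counting for each library the members within the range of the C mice gave 4 of 10 in E replicate 3, T replicate 1 and T replicate 2, and 0 in T replicate 4. The share of all tested genes within that range was not taken, so these counts describe the libraries only. Wee1 was at 1.94, 2.00, 2.47 and 2.12 FPKM in C and at 1.25 to 1.46 in E. T replicate 2 (2.11 FPKM) was the only T mouse within the C range for Wee1, as it was for Dbp and Per3.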
